A study of Drosophila melanogaster with 39 samples.

Results

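The genes blanks, heph and Rb97D encode RNA-binding proteins of Drosophila melanogaster spermatocytes, the male germ cells that grow and then enter meiosis. They were chosen by name, as 3 of the 13659 genes in the study, because their proteins are needed for transcripts of the long Y-linked genes, and all 3 were found in both tables of values. Of the 39 samples, 21 were whole-testis RNA-seq libraries from flies 1 to 3 days old, in 7 groups of 3. The mutant testes were transheterozygous, that is, they carried 2 different mutant alleles of the gene, and are labelled Cdc73L TH1, Ctr9L TH2, Leo1L TH1, Leo1L TH1 from the inverted cross, and Paf1L TH2. The control testes came from the stocks w1118 iso and w1118, which are both white-eyed laboratory stocks. The other 18 samples came from spermatocytes isolated by fluorescence-activated sorting at a stated purity of at least 85%, in 3 groups: homozygous Paf1L FS1, homozygous Leo1L FS1 and a w1118 control. All the sorted groups, controls included, carried GFP-tagged Cdc73L from its own locus, which was the signal for the sort. A sorted column of values combines 2 libraries, of which 1 was depleted of ribosomal RNA, which left 9 columns in 3 groups of 3. Cdc73L, Ctr9L, Leo1L and Paf1L are testis-expressed copies of PAF1 complex subunits, and the PAF1 complex travels with elongating RNA polymerase II, and the study asked how their loss alters gene expression in the testis.

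In spermatocytes, 3 Y-linked genes with giant introns rich in satellite repeats, kl-5, kl-3 and ORY, are transcribed as lampbrush-like structures called Y loops. kl-5 and kl-3 encode dynein heavy chains of the sperm tail, and males without the transcripts are sterile. Blanks binds double-stranded RNA, Hephaestus (heph) is the fly homolog of polypyrimidine tract-binding protein, and Rb97D has RNA recognition motifs of the type found in hnRNP A/B proteins, the abundant packagers of nuclear RNA. Each is associated with Y loops, and mutant males of each are sterile.

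All 3 genes lie on chromosome 3 and are transcribed from the minus strand, with positions on BDGP6 (dm6) from Ensembl release 115. The gene blanks (FBgn0035608) spans 3L:5497523-5498958, has 1 annotated transcript and 1268 bases of exon. The gene heph (FBgn0011224) spans 3R:31846987-32015520, which is 168534 bases, with 25 annotated transcripts, 12120 bases of exon when these are merged, and a longest intron of 77163 bases. Rb97D (FBgn0004903) spans 3R:26872129-26875742, with 9 annotated transcripts and 3286 bases of merged exon. Among the measured genes CG2003 alone overlaps a member. It lies within an intron of heph on the opposite strand, shares no exon base with it, and had a mean signal of 7.47 in whole testes and 2.20 in sorted cells, a small fraction of that of heph. No measured gene overlaps blanks or Rb97D.

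The values are GeTMM signals, which the authors normalized within each table, so levels were tested within a table and not across the tables. In whole testes, blanks ranged over the 21 libraries from 74.1 to 126 (median 98.8), heph from 556 to 722 (median 603) and Rb97D from 169.8 to 223 (median 195). In sorted cells, blanks ranged over the 9 columns from 7.77 to 26.6 (median 15.4), heph from 195 to 299 (median 247) and Rb97D from 40.7 to 90.6 (median 55.6). Levels of different genes can be set side by side only per length, and whether the deposited values were already divided by gene length is not settled. If they were, control testes had heph at 594, Rb97D at 187 and blanks at 91.5. If they were not, per 1000 bases of merged exon the control testes had 72.2 ± 15.4 for blanks, 56.8 ± 2.57 for Rb97D and 49.0 ± 2.21 for heph (SD, n = 6). In sorted control cells the values were 25.7 ± 1.70 for Rb97D, 20.5 ± 0.281 for heph and 16.4 ± 6.34 for blanks per 1000 bases (SD, n = 3), and over the sorted columns the ranges of all 3 overlapped. The order of the members thus depends on the scale. Merging exons overstates the length of a single heph transcript, and so understates heph on this scale. In rank among the genes tested in a library, heph stood between the 97.2 and 98.5 percentile in testes and between 87.3 and 91.3 in sorted cells. Rb97D stood between 88.2 and 91.2 in testes and between 65.0 and 77.4 in sorted cells, and blanks between 73.7 and 83.5 and between 38.6 and 58.4. All 3 thus held lower ranks in the sorted table, and the ranks of blanks ran over the widest range in both. The ranks are taken among different sets of genes, 10925 in testes and 9495 in sorted cells. The libraries of the 2 tables were also made in different ways. A difference in level between sorted cells and testes was not tested.

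Facts of the whole series bear on these values. Approximate depth was 8.69 to 12.8 M reads per testis library and 7.97 to 20.9 M per sorted column, and the signal of 3 reads was at most 0.384, so every member was far above the floor in every library. The approximate reads behind a member's value were fewest for blanks in sorted cells, at 91 to 489. These read numbers take the values as not divided by gene length. The targeted genes checked the labels: CG10887 (Leo1L) had a signal of 15.5 to 18.2 in Leo1L testes, against 53.7 to 70.0 in control testes, CG12674 (Paf1L) had 2.84 to 6.67 in Paf1L testes, against 47.6 to 59.7, and CG9899 (Ctr9L) had 9.91 to 10.7 in Ctr9L testes, against 107 to 127. In sorted cells CG12674 had 0.74 to 1.28 in Paf1L columns, against 17.0 to 27.7 in control columns, and CG10887 had 6.18 to 8.20 in Leo1L columns, against 17.0 to 23.1. Each also lay below all control columns in the other sorted mutant, without passing. There CG12674 had 10.2 to 16.2 in Leo1L and CG10887 had 11.1 to 15.6 in Paf1L columns. The gene of Cdc73L was not matched to the tables and is not checked here. All 11 spermatocyte markers were detected in the sorted cells, where their summed signal was 604 to 782 in Paf1L, 635 to 820 in Leo1L and 559 to 565 in control columns. The sums hide opposite differences, with 2 of 11 passing as higher and 2 as lower in Paf1L, and 2 as higher and 1 as lower in Leo1L. For example, the mean of topi was 135 in Paf1L and 79.2 in control columns, and that of can was 9.78 and 17.3. In control testes, in the other table, the sum was 773 to 913. The Y-linked gene Pp1-Y1, of a protein phosphatase, had 12.9 to 13.9 in sorted Paf1L and 15.5 to 18.0 in sorted Leo1L columns, while each sorted control column lists it at 0, and it had 9.12 to 13.5 in control testes. The labels do not state where the Y chromosome of each sorted group came from, and its part in the Y-linked differences was not tested. Markers of the accessory gland, a neighbouring organ of the male tract, summed to 23.7 to 317 in Cdc73L testes, against 440 to 1976 in control testes. The sums reached as low as 28.9 in the inverted Leo1L cross and 56.2 in Paf1L testes, where they varied widely between libraries.

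Rb97D was the member with the largest change that passed the test. In sorted spermatocytes it was lower in both mutants than in controls. Its signal in replicates 1, 2 and 3 was 64.2, 40.7 and 51.3 in Paf1L columns, 44.7, 49.9 and 55.6 in Leo1L columns, and 90.6, 79.6 and 83.4 in control columns. Every mutant column lay below every control column, and the mutant groups overlapped each other. The group means were 52.1 ± 11.8 in Paf1L, 50.1 ± 5.44 in Leo1L and 84.5 ± 5.59 in control cells (SD, n = 3 each).

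The log2 fold change of Rb97D was -0.71 in Paf1L (95% interval -1.03 to -0.39) and -0.75 in Leo1L cells (-1.06 to -0.43), with adjusted p-values of 0.00332 and 0.00341 by limma with Benjamini-Hochberg adjustment over all tested genes. These are 0.611-fold and 0.596-fold of the control level. In RNA from pooled cells, sorted or whole testis, fewer cells of a type and less RNA per cell cannot be told apart. The mutants are read against the same 3 control columns. Among 9495 tested genes, 25.4% passed in Paf1L (12.3% lower) and 16.5% in Leo1L (6.95% lower), and 1 of the 3 members passed in each. Of all tested genes, 4.17% had a lower fold change than Rb97D in Paf1L and 2.65% in Leo1L. Paf1L did not pass against Leo1L for this gene: the difference was 0.04 on the log2 scale, with an interval of -0.28 to 0.35 and an adjusted p of 0.938 by limma, an interval that runs from 0.824-fold to 1.28-fold.

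Markers of other cells also differed between the sorted groups. Spermatid markers summed to 2830 to 3085 in Paf1L, 3209 to 3552 in Leo1L and 3292 to 3636 in control columns, and 3 of 7 passed as lower in Paf1L and 0 of 7 in Leo1L. With the spermatid score as a covariate, an alternative added after the data were seen, Rb97D gave -0.47 in Paf1L with an adjusted p of 0.134 by limma and -0.75 in Leo1L with 0.00195. Cyst and hub markers, of the somatic cells around the germ line, summed to 59.1 to 78.7 in Paf1L, 52.0 to 62.7 in Leo1L and 83.6 to 94.9 in control columns, with 1 of 6 tested passing as lower in each mutant. That gene was upd1, known as a ligand made by hub cells. It had 3.90 to 5.06 in Paf1L, 4.70 to 8.62 in Leo1L and 26.2 to 30.2 in control columns. Its mean was 27.7 in sorted control columns and 18.1 in control testes. Each other marker of the list had a lower mean in sorted control columns than in control testes, such as Fas3 (3.50 and 65.3) and hh (0.639 and 19.4). Which cells gave the upd1 signal was not tested, so its values are not read as a number of hub cells. Without upd1, which was set apart after its values were seen, the list summed to 55.2 to 73.6 in Paf1L, 47.3 to 54.1 in Leo1L and 55.9 to 68.2 in control columns, so Paf1L overlapped the controls. The gene piwi, of the list, averaged 8.76 in Paf1L, 4.83 in Leo1L and 3.33 in control columns and did not pass. With the cyst and hub score as a covariate, also added later, Rb97D gave -0.71 in Paf1L and -0.76 in Leo1L, and with the score without upd1 -0.70 and -0.75, and all 4 passed.

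**Figure D1:**
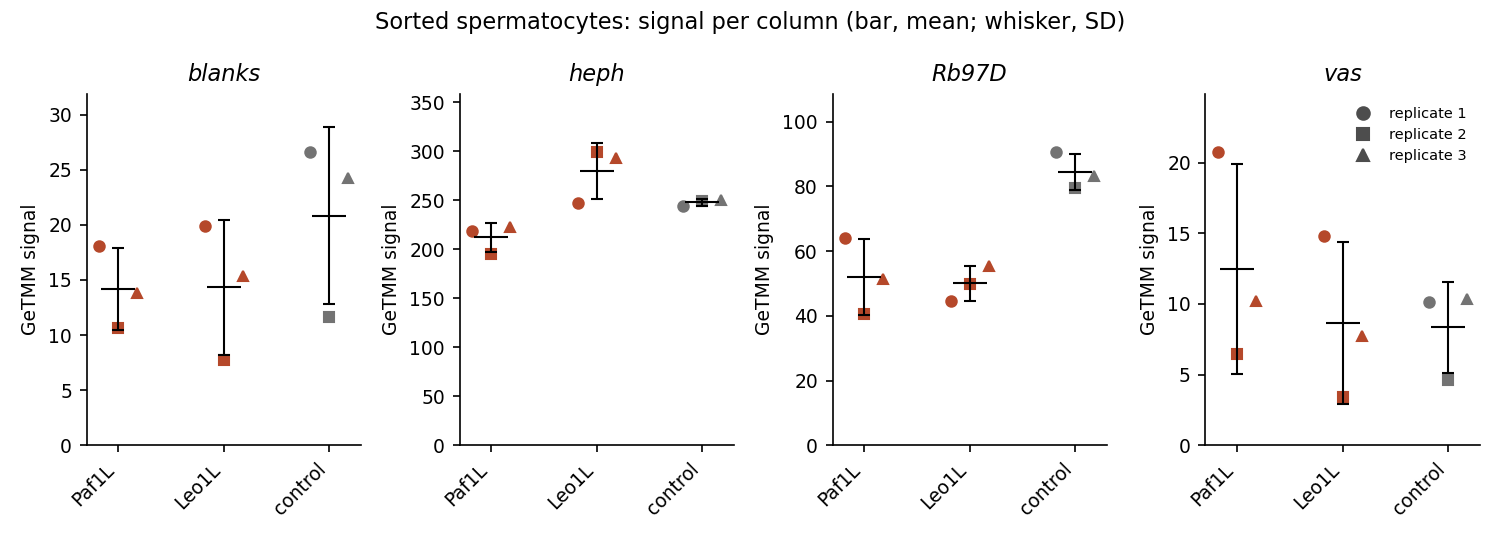
GeTMM signal of blanks, heph, Rb97D and, for comparison, the early germline marker vas in the 9 columns of sorted spermatocytes, with Paf1L, Leo1L and control on the horizontal axis and the replicate number shown by the shape of the point (bar, mean and whisker, SD, n = 3). Rb97D lies between 40.7 and 64.2 in the mutants and between 79.6 and 90.6 in control columns, while replicate 2 is the lowest column of each group for blanks and for vas.

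In whole testes Rb97D did not pass as lower in any mutant. Its signal in replicates 1, 2 and 3 was 208, 223 and 209 in Cdc73L, 214, 208 and 190.2 in Ctr9L, 169.8, 183 and 188 in Leo1L, 195, 204 and 219.9 in the inverted Leo1L cross, and 221, 202 and 195 in Paf1L testes. Control testes had 199.6, 185 and 182 in w1118 iso, and 176, 194 and 185 in w1118. All Cdc73L libraries lay above all 6 control libraries, and the other mutant groups overlapped the controls.

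Among the testis mutants Rb97D passed the test in Cdc73L alone, where it averaged 213 ± 8.28 (SD, n = 3), against 187 ± 8.46 in control testes (SD, n = 6). The log2 fold change was 0.19 (95% interval 0.07 to 0.31), with an adjusted p of 0.0271 by limma. Among 10925 tested genes 23.0% passed in Cdc73L testes (10.4% higher), and 2 of the 3 members did, Rb97D and heph. Of those calls 45.1% were higher, and 62.5% when every library was rescaled to 1 total. No member passed in the other mutants, where 22.8% of tested genes passed in Ctr9L, 30.4% in Leo1L, 31.7% in the inverted Leo1L cross and 28.9% in Paf1L. The Rb97D values were 0.13 in Ctr9L, 0.14 in the inverted Leo1L cross and 0.14 in Paf1L, with adjusted p-values by limma of 0.131, 0.0736 and 0.0792, and -0.05 in Leo1L with 0.557. The inverted cross and Paf1L passed with every library rescaled to 1 total, with quantile normalization, and without w1118 iso replicate 1 (adjusted p of 0.0446 and 0.0485 by limma), and Ctr9L passed with quantile normalization. The intervals of the 4 mutants reached at most 0.27 upward and -0.17 downward on the log2 scale. The Cdc73L call was lost without Cdc73L replicate 2 or replicate 3 (adjusted p of 0.133 and 0.0569 by limma), against w1118 iso libraries only (0.0832), with only the compared groups fitted (0.0868), and with the accessory gland (0.361) or muscle score (0.0716) as a covariate. Of the accessory gland markers, 7 of 9 passed as lower in Cdc73L testes and 0 of 9 in each of the other mutants. Their median log2 fold change was -3.45 in Cdc73L, -1.81 in the inverted Leo1L cross, -0.66 in Paf1L, 0.16 in Leo1L and 0.21 in Ctr9L. Single libraries varied widely, with sums of 28.9 to 1921 in the inverted cross and 56.2 to 3028 in Paf1L. Spermatid markers summed to 3567 to 3752 in Cdc73L testes, against 4026 to 4458 in control testes. The other mutants also lay below all controls, from 3241 in the inverted Leo1L cross to 3844 in Ctr9L. As lower, 3 of 7 passed in Cdc73L, 2 in Ctr9L and 5 in each of Leo1L, the inverted cross and Paf1L. The spermatid score was not used as a covariate in testes, and its part in the member values was not tested.

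The order of group means for Rb97D in testes was Cdc73L, Paf1L, inverted Leo1L, Ctr9L, w1118 iso, w1118 and Leo1L, and groups next to each other in this order overlapped. Among the 10 pairs of mutants, Rb97D passed in 1, Leo1L against Cdc73L, at -0.24 on the log2 scale (95% interval -0.38 to -0.10, adjusted p of 0.0406 by limma). In that pair 6.29% of tested genes passed (3.75% lower). Against Cdc73L the share was 6.72% in Paf1L, 5.34% in the inverted Leo1L cross and 0.265% in Ctr9L. Against Ctr9L it was 4.91% in Paf1L, 5.28% in Leo1L and 2.86% in the inverted cross. Between the Leo1L crosses it was 0.0366%, and Paf1L gave 0.238% against Leo1L and 0.128% against the inverted cross. The call was lost on leaving out any of the 6 libraries of the pair, with adjusted p-values by limma of 0.0511 to 0.170. The inverted cross carries the same Leo1L genotype label and did not pass against Cdc73L, nor against the other Leo1L cross.

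The gene heph also passed in Cdc73L alone among the testis mutants. In testes its signal in replicates 1, 2 and 3 was 677, 722 and 626 in Cdc73L, 620.1, 575 and 571 in Ctr9L, 585, 582 and 592 in Leo1L, 572, 661 and 622 in the inverted Leo1L cross, and 684, 608 and 591 in Paf1L. Control testes had 629, 591 and 612 in w1118 iso, and 573, 603 and 556 in w1118. In Cdc73L testes 2 of 3 libraries lay above all 6 controls, and in the inverted Leo1L cross and in Paf1L 1 of 3 did.

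The heph mean was 675 ± 47.9 in Cdc73L testes (SD, n = 3), against 594 ± 26.7 in control testes (SD, n = 6), a log2 fold change of 0.18 (95% interval 0.06 to 0.31, adjusted p of 0.0359 by limma). The Cdc73L call of heph was lost without any 1 of 4 libraries (Cdc73L replicates 1 and 2, w1118 iso replicate 2, w1118 replicate 3), against w1118 iso libraries only, with only the compared groups fitted, and with the accessory gland or the muscle score as a covariate. Muscle sheath markers summed to 481 to 765 in Cdc73L testes, against 594 to 854 in control testes, and 0 of 9 passed there. As lower, 8 of 9 passed in Ctr9L, 8 in the inverted Leo1L cross, 5 in Paf1L and 0 in Leo1L testes. In the mutants other than Cdc73L, heph lay between -0.02 in Leo1L and 0.08 in Paf1L on the log2 scale. All 4 intervals were inside -0.15 to 0.20 (0.904-fold to 1.15-fold), with adjusted p-values by limma of 0.366 to 0.913. The order of group means was Cdc73L, Paf1L, inverted Leo1L, w1118 iso, Ctr9L, Leo1L and w1118, with overlap between neighbours.

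**Figure D2:**
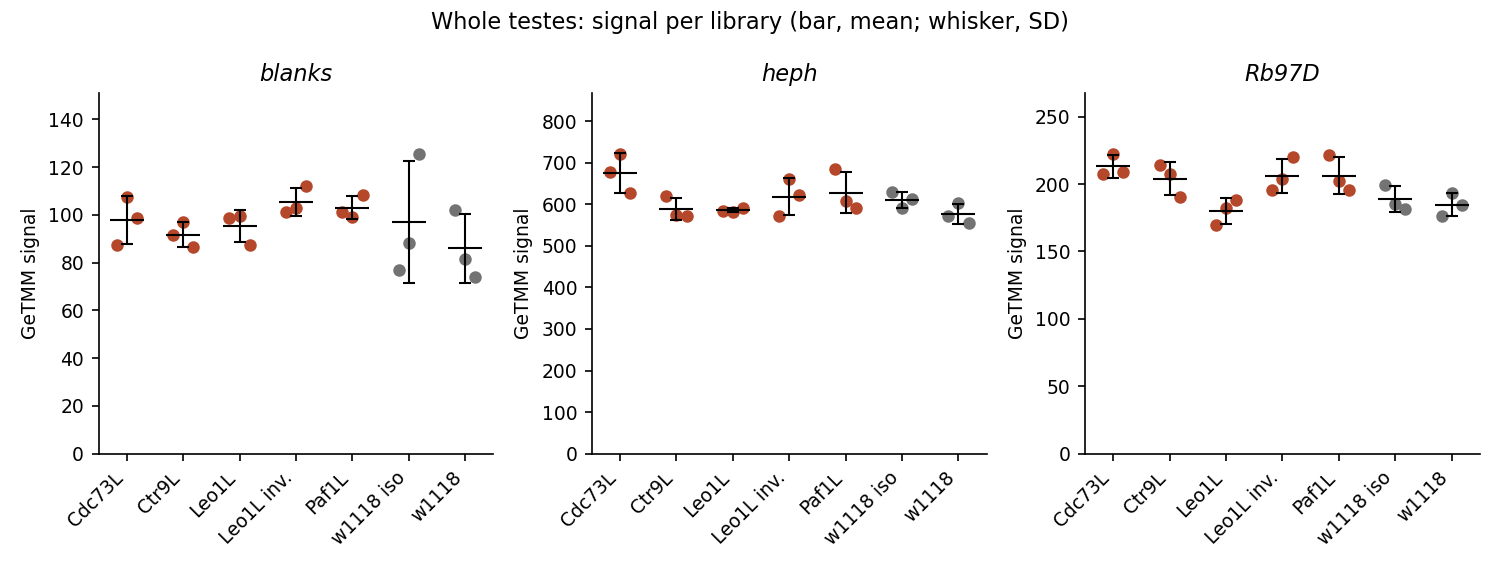
GeTMM signal of blanks, heph and Rb97D in the 21 whole-testis libraries, with the 5 mutant groups (red) left of the control stocks (grey) on the horizontal axis (bar, mean and whisker, SD, n = 3). Rb97D in Cdc73L testes, at 208 to 223, lies above all control libraries (176 to 199.6), and blanks shows its widest spread in w1118 iso (77.1 to 126).

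In sorted cells heph gave values on either side of the control. Its signal in replicates 1, 2 and 3 was 219, 195 and 223 in Paf1L columns, 247, 299 and 293 in Leo1L columns, and 244, 249 and 251 in control columns. All Paf1L columns lay below all control columns, 2 of 3 Leo1L columns lay above them, and the mutant groups did not overlap. The means were 212 ± 15.2 in Paf1L, 280.0 ± 28.5 in Leo1L and 248 ± 3.41 in control cells (SD, n = 3 each).

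None of the heph differences in sorted cells passed. The log2 fold change was -0.23 in Paf1L (95% interval -0.41 to -0.04, adjusted p of 0.065) and 0.17 in Leo1L (-0.01 to 0.35, adjusted p of 0.209), both by limma. Paf1L against Leo1L gave -0.40 (-0.58 to -0.21), with an adjusted p of 0.0717 by limma, in a comparison where 0.442% of tested genes passed. That difference passed without Leo1L replicate 1, at -0.48 with an adjusted p of 0.0193 by limma.

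The gene blanks passed in none of the comparisons. Its spread between replicates was wider than that of heph and Rb97D in both control stocks, in Cdc73L and Leo1L testes and in the sorted groups, and narrower than theirs in the inverted Leo1L cross and in Paf1L testes. In testes its signal in replicates 1, 2 and 3 was 87.2, 107 and 98.8 in Cdc73L, 91.4, 97.1 and 86.7 in Ctr9L, 98.7, 99.7 and 87.6 in Leo1L, 101, 103 and 112 in the inverted Leo1L cross, and 101, 99.3 and 109 in Paf1L. Control testes had 77.1, 88.4 and 126 in w1118 iso, and 102, 81.5 and 74.1 in w1118. Every mutant library lay inside the range of the controls, whose highest library is w1118 iso replicate 3.

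The log2 fold changes of blanks in testes were 0.11 in Cdc73L, 0.03 in Ctr9L, 0.08 in Leo1L, 0.22 in the inverted Leo1L cross and 0.19 in Paf1L, with adjusted p-values by limma of 0.161 to 0.908. The intervals together ran from -0.22 to 0.48, which is 0.856-fold to 1.39-fold. Without w1118 iso replicate 3, the inverted Leo1L cross (0.33, adjusted p of 0.0123 by limma) and Paf1L (0.29, 0.0237) passed. The order of group means was inverted Leo1L, Paf1L, Cdc73L, w1118 iso, Leo1L, Ctr9L and w1118, and no pair of neighbours was apart beyond the spread. The control stocks did not pass against each other for any member (8.69% of tested genes passed there): w1118 iso over w1118 gave 0.16 for blanks, 0.08 for heph and 0.03 for Rb97D on the log2 scale.

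In sorted cells the signal of blanks in replicates 1, 2 and 3 was 18.1, 10.7 and 13.8 in Paf1L columns, 19.9, 7.77 and 15.4 in Leo1L columns, and 26.6, 11.6 and 24.2 in control columns. Replicate 1 was the highest and replicate 2 the lowest column in each group, so the groups overlapped although 2 of 3 control columns lay above all mutant columns. The means were 14.2 ± 3.73 in Paf1L, 14.3 ± 6.11 in Leo1L and 20.8 ± 8.04 in control cells (SD, n = 3 each).

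The log2 fold change of blanks was -0.47 in Paf1L (95% interval -1.20 to 0.25, adjusted p of 0.332) and -0.52 in Leo1L (-1.24 to 0.21, adjusted p of 0.349), both by limma. As folds these intervals are 0.436 to 1.19 in Paf1L and 0.422 to 1.16 in Leo1L. Replicate 2 was also the lowest column of each group for vas, a germline helicase, with 20.7, 6.49 and 10.2 in Paf1L, 14.8, 3.41 and 7.77 in Leo1L, and 10.1, 4.65 and 10.3 in control columns. The list it belongs to, early germline, has 5 markers, of which bgcn and stai make up most of the summed signal (408 to 466 in Paf1L, 412 to 509 in Leo1L and 416 to 465 in control columns), and none was at 0 throughout a group. The similar sums hide opposite differences. The mean of bgcn was 141 in Paf1L, 135 in Leo1L and 204 in control columns, and that of stai was 283.5, 323 and 218. Of the 5 markers, 1 passed as higher and 1 as lower in each sorted mutant. With the early germline score as a covariate, an alternative added after the data were seen, blanks gave -0.71 in Paf1L with an adjusted p of 0.0235 by limma and -0.39 in Leo1L with 0.206. Over the 12 other settings, blanks in sorted Paf1L ran from -0.71 to 0.14 and passed in 1, so its direction depended on the setting. In sorted Leo1L it ran from -0.62 to -0.39 and passed in 0.

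**Figure D3:**
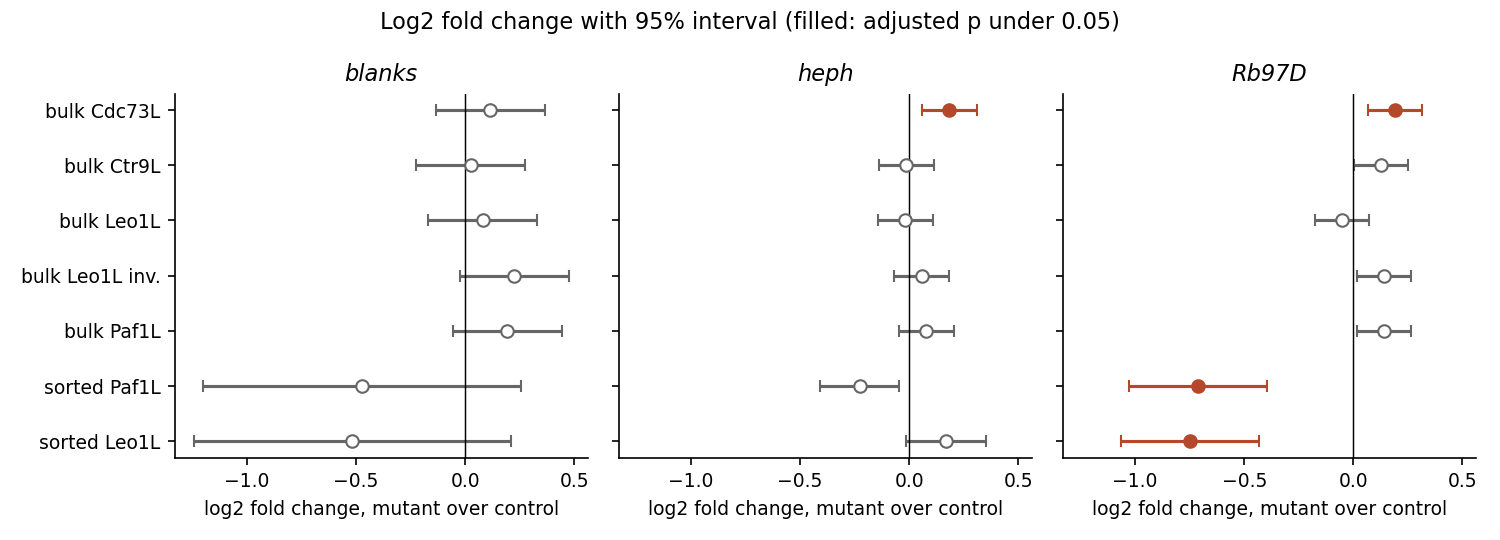
Log2 fold change of blanks, heph and Rb97D (points) with 95% intervals (lines) for 5 comparisons of mutant testes and 2 of sorted mutant spermatocytes with their controls (filled points have an adjusted p under 0.05 by limma). Rb97D in the sorted mutants, at -0.71 and -0.75, lies farthest from 0 among the values that passed, and the blanks intervals in sorted cells are the widest.

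A further 8 genes known for roles at Y loops or in the processing of Y-linked transcripts were read alongside. Against controls, 3 of 8 were lower and 1 higher in Cdc73L testes, 1 lower in Ctr9L, 3 lower in Leo1L, 2 lower and 1 higher in the inverted Leo1L cross, and 3 lower and 1 higher in Paf1L. Of all tested genes, 12.6% passed as lower in Cdc73L testes, 10.8% in Ctr9L, 15.1% in Leo1L, 15.9% in the inverted cross and 15.0% in Paf1L, so the Ctr9L count is near this background and the others are 2 to 3 genes of 8. In sorted cells 4 of 8 were lower in Paf1L and 3 of 8 in Leo1L, and none was higher, beside 12.3% and 6.95% lower over all tested genes. Their median log2 fold change in sorted cells was -0.27 in Paf1L and -0.22 in Leo1L, beside 0.05 and 0.02 over all tested genes.

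The gene pont, which encodes the AAA+ ATPase Pontin, was lower in all 5 testis mutants, by -0.19 to -0.37 on the log2 scale, and in sorted Paf1L (-1.22) and Leo1L (-0.99). Its signal in replicates 1, 2 and 3 was 54.9, 45.1 and 56.0 in sorted Paf1L, 52.4, 69.3 and 62.0 in sorted Leo1L, and 134, 118 and 115 in sorted control columns. Mutants and controls did not overlap in any of the 7 comparisons. The smallest of these, Cdc73L, was lost without Cdc73L replicate 3 and under 4 other settings.

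Hrb98DE, an hnRNP A/B protein of the same kind as Rb97D, was lower in 4 of 5 testis mutants, from -0.35 in Cdc73L to -0.63 in Leo1L, and gave -0.11 in Ctr9L, which did not pass. Its signal in replicates 1, 2 and 3 was 197, 239 and 244 in sorted Paf1L, 225, 278 and 262 in sorted Leo1L, and 509.7, 519 and 526 in sorted control columns, with no overlap. The log2 fold change there was -1.19 in Paf1L (adjusted p of 1.24e-06) and -1.03 in Leo1L (5.88e-06), both by limma. The Cdc73L call was lost on leaving out 6 of the 9 libraries, 1 at a time.

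Boule (bol), the fly homolog of the human DAZ proteins and needed for entry into meiosis, was lower in sorted Paf1L (-0.49) and Leo1L (-0.30), with 1510 to 1649 in Paf1L, 1745 to 1907 in Leo1L and 2107 to 2274 in control columns. It did not pass in testes. The gene maca, named CG5213 in the tables, gave -0.27 in sorted Paf1L with an adjusted p of 0.0422 by limma, and this was lost on leaving out any 1 of the 6 columns. Reptin (rept), the partner ATPase of Pontin, passed as lower in Cdc73L testes (-0.23). Among the genes with roles in splicing, ps passed as lower in Leo1L (-0.21) and Paf1L (-0.26) testes. In testes SRPK passed as higher in Cdc73L (0.20) and the inverted Leo1L cross (0.20), and U2af38 as higher in Paf1L (0.21). The ps call in Leo1L, both SRPK calls and the U2af38 call were each lost on leaving out several single libraries.

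Relatives of the members by their RNA-binding domains numbered 12, of which 2 passed in each sorted mutant, both lower, and 2 to 4 in each testis mutant. Of all tested genes, 25.4% passed in sorted Paf1L (12.3% lower), 16.5% in sorted Leo1L (6.95% lower) and 22.8% to 31.7% in the testis mutants. Counted in either direction, the relatives that passed are near or below these shares in both tables. As lower alone, 2 of 12 is above the share of all tested genes in both sorted mutants, and these are Hrb98DE and Hrb87F. In each testis mutant 0 or 1 was lower. Hrb87F, another hnRNP A/B protein, was lower in both sorted mutants. Its signal in replicates 1, 2 and 3 was 54.5, 42.4 and 55.0 in Paf1L, 53.4, 41.7 and 50.5 in Leo1L, and 74.9, 73.7 and 75.1 in control columns, without overlap. The log2 fold change was -0.56 in Paf1L (adjusted p of 0.00573) and -0.62 in Leo1L (0.00446), both by limma, and the Paf1L call was lost with the spermatid score as a covariate. In testes Hrb87F passed as higher in the inverted Leo1L cross (0.25) and in Paf1L (0.22), and the Paf1L call was lost on leaving out 6 of the 9 libraries, 1 at a time.

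Rbp4, a testis RNA-binding protein that holds back translation of Cyclin B in spermatocytes, was higher in all 5 testis mutants, by 0.20 in Ctr9L to 0.39 in the inverted Leo1L cross on the log2 scale. Its signal was 105 to 125 over the mutant libraries and 82.5 to 97.8 over the control libraries, which did not overlap. In sorted cells Rbp4 gave 0.01 in Paf1L and -0.10 in Leo1L and did not pass, and replicate 2 was its lowest column in every group, with 11.7 in Paf1L, 10.98 in Leo1L and 9.81 in control. The RNA helicase mle passed as higher in Ctr9L (0.26) and the inverted Leo1L cross (0.30).

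**Figure D4:**
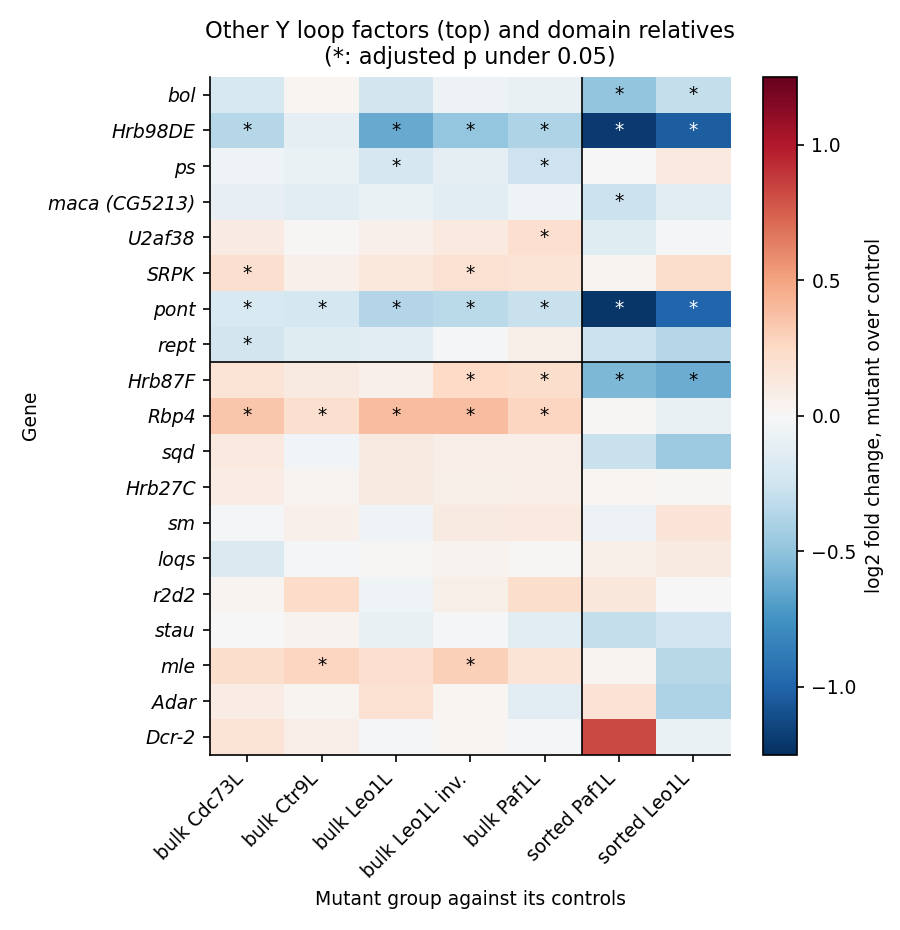
Log2 fold change (colour) of 8 other Y loop or Y gene RNA factors, above the line, and 11 relatives of the members by RNA-binding domain (Hrb98DE, in both lists, is drawn once) in 5 comparisons of mutant testes and 2 of sorted mutant spermatocytes with controls (asterisk, adjusted p under 0.05 by limma). Hrb98DE and pont are the darkest cells in the sorted columns, at -0.99 to -1.22, and Rbp4 passes as higher in all 5 testis comparisons.

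The Y loop genes kl-5 and ORY were lower in all 5 testis mutants, and kl-5 and kl-3 in both sorted mutants. In sorted cells kl-5 had 18.1, 26.1 and 20.9 in replicates 1, 2 and 3 of Paf1L, 21.5, 36.4 and 37.5 in Leo1L, and 121, 109.9 and 84.6 in control columns. This was a log2 fold change of -2.22 in Paf1L and -1.72 in Leo1L, and both passed. For kl-3 the values were -1.44 in Paf1L and -0.71 in Leo1L, and both passed. ORY was -0.88 in Paf1L, which passed, and 0.03 in Leo1L, which did not (adjusted p of 0.935 by limma).

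In testes kl-5 passed as lower in all 5 mutants, from -0.30 in Cdc73L to -1.47 in the inverted Leo1L cross, and ORY likewise, from -0.45 in Cdc73L to -1.84 in Paf1L. Both Cdc73L calls were lost in several settings. For kl-3, Leo1L (-0.40), the inverted cross (-0.51) and Paf1L (-0.50) passed as lower, and Cdc73L (0.16) and Ctr9L (-0.23) did not pass. Of 12 Y-linked genes in all, 8 were lower in Paf1L testes, 8 in Leo1L, 7 in the inverted cross, 6 in Ctr9L and 3 in Cdc73L, and 7 were lower in sorted Paf1L and 5 in sorted Leo1L. The shares of all tested genes that passed as lower were 10.8% to 15.9% in testes, 12.3% in sorted Paf1L and 6.95% in sorted Leo1L. Others passed as higher: FDY and Pp1-Y2 in Cdc73L, Ppr-Y in Ctr9L, FDY in the inverted cross and in Paf1L testes, ARY and Pp1-Y1 in sorted Leo1L and Pp1-Y1 in sorted Paf1L. FDY also differed between the control stocks, with a mean of 11.8 in w1118 iso and 3.71 in w1118 (1.44 on the log2 scale, adjusted p of 2.21e-05 by limma). The median log2 fold change of the 12 was -0.51 in Paf1L, -0.62 in Leo1L and -0.03 in Cdc73L testes, beside 0.00, 0.03 and 0.02 over all tested genes, and -0.87 in sorted Paf1L and -0.14 in sorted Leo1L, beside 0.05 and 0.02. None of blanks, heph and Rb97D passed as lower in Leo1L or Paf1L testes. In sorted cells Rb97D passed as lower in both mutants, at -0.71 in Paf1L and -0.75 in Leo1L. A link between the members and the Y-linked genes was not tested.

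The members did not vary together as a group. Across the 21 testis libraries Pearson's r of log2 signal was 0.71 between Rb97D and heph, 0.24 between blanks and heph and 0.13 between Rb97D and blanks. Across the 9 sorted columns it was 0.17, -0.12 and 0.56 for the same pairs. These describe libraries that share group, depth and replicate, and carry no test.

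By the mean of r over the 21 testis libraries and r over the 9 sorted columns, among 9332 genes tested in both tables, the genes most like Rb97D were Slip1, Hrb87F, Capr, Utx and CG6015, at 0.74 to 0.78. The genes most like blanks were the gene of heterochromatin protein 1a, Nlp, a nucleoplasmin-like histone chaperone, vig2, ATPsynepsilonL and Fkbp59, at 0.78 to 0.83. Those most like heph were CG13926, Mnat9, cocoon, GstT1 and yip3, at 0.62 to 0.69, a looser likeness than for the other members. In sorted cells Nlp had an r of 0.96 with blanks.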

How the data were processed

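RNA-seq values were deposited as 1 table per experiment, with 21 whole-testis libraries and 9 sorted-spermatocyte columns. The signal values in both tables were normalized by the authors under the name GeTMM, per the file headers and the labels. STAR, Salmon, edgeR 3.34.0, DESeq2 and the build dm6 are listed in the submitters' processing notes, with no roles. Counting, strand setting and annotation are not given in the sources used here, and whether values were divided by gene length is not settled. Testis libraries were made from poly(A) RNA, per the labels' protocols. A repeated header line was left out of each table, and 0 columns of values went unused.

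Low values lay mostly near whole multiples of a step (within 0.1 of a whole number for 52.7% to 86.2% of those up to 6 steps in testis libraries, 73.9% to 84.6% in sorted columns), too few to treat them as counts. Dividing a library's total by its step gave the approximate depths and reads, and floors at 3 reads cover counting error only. Depths, reads and floors hold only if the values were not divided by gene length. Genes with a mean signal of at least 1 were tested, 10925 in testes and 9495 in sorted cells, as log2(signal + 1), which understates the change of low genes. In R 4.3.3, limma 3.58.1 (lmFit and trended eBayes) was run over all groups of a table, each control stock weighing the same, with Benjamini-Hochberg adjustment within each comparison and a call at an adjusted p under 0.05 at any fold. Replicates are separate samples. The labels state 3 independent sorts for the sorted groups and do not state separate pools of flies for testes, so those p-values measure the spread between these samples. The fit was tested on simulated data with 200 changed genes: in Cdc73L testes it recovered 85% of log2 changes of 1 and 54% of 0.5, with 3.47% false among calls, and in sorted Leo1L 57%, 19% and 3.80%.

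Genes named are the members, genes of the lists that passed against controls, kl-5, kl-3 and ORY, the targeted genes, marker genes and, for each member, the 5 genes most like it. The members and lists were chosen with earlier results of these data known. The gene lump (CG10630) of the lists is a synonym of blanks in RefSeq and was not counted again. Alternatives were other pseudocounts (0.1, 5), filters, rescaling to 1 total, quantile normalization, other control groups, marker scores as covariates, a replicate block and leaving out each library. Annotation came from Ensembl release 115.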

Additional observations from a re-analysis of the deposited data

Results flagged for a closer look

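Rb97D differed between mutants in whole testes: Leo1L against Cdc73L gave -0.24 (-0.2413) on the log2 scale, with an adjusted p of 0.0406 by limma, below in 3 of 3 Leo1L libraries. This was the only call among 10 mutant pairs for each of 3 members.

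In 3 cases every replicate of a sorted mutant lay on the other side of its control mean from every replicate of the testis mutant, where the control mean is that of log2(signal + 1). The difference between the sorted and the testis log2 fold change was -0.6655 for blanks in Paf1L, -0.8521 for Rb97D in Paf1L, and -0.8899 for Rb97D in Leo1L set against the inverted testis cross. For blanks in sorted Leo1L, replicate 1 lay just above that mean, so it is not among them. The tables were normalized separately and hold different alleles, and these differences were not tested.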

How the results depend on the processing

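No call among the members changed direction in any setting. Rb97D in sorted cells passed in Leo1L in all 12 other settings and all 6 fits that leave out a column (-0.82 to -0.67), and in Paf1L in 11 of 12 and all 6 (-0.87 to -0.55). The exception was the spermatid score covariate (-0.47). With the early germline score, blanks in sorted Paf1L passed (-0.71). Over the 12 other settings that value ran from -0.71 to 0.14, so it changed sign without being called there. Rescaling to 1 total made Rb97D pass in the inverted Leo1L cross (0.18) and Paf1L (0.22) testes, and quantile normalization in Ctr9L (0.16), the inverted cross (0.18) and Paf1L (0.20). In Cdc73L testes heph and Rb97D no longer passed when only the compared groups were fitted (0.18 and 0.19), against w1118 iso only (0.14 and 0.17), with the accessory gland score (0.11 and 0.10) or with the muscle score (0.15 and 0.18). Leaving out single libraries gave 0.13 to 0.24 for heph and 0.16 to 0.21 for Rb97D in Cdc73L, 0.10 to 0.18 for Rb97D in the inverted cross and 0.0898 to 0.18 in Paf1L, 0.15 to 0.33 for blanks in the inverted cross and 0.12 to 0.29 in Paf1L, and -0.48 to -0.34 for heph in sorted Paf1L against Leo1L. The replicate block changed 1 call, Rb97D in Leo1L against Cdc73L testes (-0.24, adjusted p of 0.0605 by limma). Deviations of same-numbered libraries had a median r of -0.01 in testes (0.01 for other pairs) and 0.08 in sorted cells (-0.05 for other pairs), where 4 of 9 pairs were over 0.1 and 5 of 9 columns correlated best with their own number, so the numbers were not taken as a pairing. With the block, blanks in sorted cells, lower in the mutant in all 6 same-numbered pairs, gave adjusted p-values of 0.0712 in Paf1L and 0.0673 in Leo1L by limma. The causes of these shifts were not tested. With 3 samples per group, changes as small as those of the members in testes are near the limit of what could be called, as are those of blanks in sorted cells.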
